A study of Mus musculus with 24 samples.

Results

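Syt10, Rbm20, Fcho1, Arhgap26 and Nxpe2 were followed through every cell type of the mouse amygdala in the strains DBA and BL6, as 5 of 34039 genes in the RNA count table, together with the 192 of 271433 open chromatin peaks that lie inside these genes or within 10 kb of them. The genes were chosen because their strain difference in RNA depended on whether the cells were glia or neurons. They were thus selected on their RNA values by strain and class, and those values are given here as a description with no test. The tissue came from adult male mice, and the labels name no treatment. DBA had 2 RNA libraries and 2 ATAC libraries, and BL6 also had 2 of each. Each library was made from tissue pooled from about 2 animals aged 10 to 16 weeks. RNA was counted in single nuclei sorted to about 75% neurons and 25% other cells with an antibody to NeuN, a protein of neuronal nuclei. Open chromatin was counted in single nuclei by ATAC, in which a transposase cuts accessible DNA. No shares sorted by NeuN are given for the ATAC nuclei. Libraries are called DBA_2, DBA_3, BL6_2 and BL6_3 after the numbers in the count tables. The study counts each pool as a replicate, so p-values measure the spread between 2 pools per strain.

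The genes have different roles. Syt10 encodes a synaptotagmin, one of the membrane proteins that sense calcium on vesicles before they fuse with the cell surface. Rbm20 encodes an RNA-binding splicing regulator, best known for controlling titin isoforms in the heart. Fcho1 encodes a membrane-bending protein that helps to start clathrin-coated pits. Arhgap26, also called GRAF1, encodes an activator of GTP hydrolysis by small GTPases that also takes part in clathrin-independent endocytosis. Nxpe2 belongs to a family named for its likeness to the neurexophilins, and its function in brain is little known. Astrocytes take up transmitter and support synapses, oligodendrocytes make myelin, their precursors (OPC) divide and renew them, and microglia are the resident immune cells of the brain.

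On mm10 (GRCm38.p6), Syt10 spans chr15:89773714-89841980, Rbm20 chr19:53660989-53867083, Fcho1 chr8:71708387-71729330 and Nxpe2 chr9:48318003-48353449. The 250 bases before 1 RefSeq transcript start are shown for Syt10, Fcho1 and Nxpe2 because accessibility at or near these starts is reported below. All 3 starts lie inside the spans given, 0.12 kb from the 5′ end for Syt10, 3.65 kb for Fcho1 and 12.6 kb for Nxpe2, so other transcripts of Fcho1 and Nxpe2 begin farther upstream. The bases are written 5′ to 3′ on the minus strand with motif matches in capitals.
Syt10, chr15:89841861-89842110: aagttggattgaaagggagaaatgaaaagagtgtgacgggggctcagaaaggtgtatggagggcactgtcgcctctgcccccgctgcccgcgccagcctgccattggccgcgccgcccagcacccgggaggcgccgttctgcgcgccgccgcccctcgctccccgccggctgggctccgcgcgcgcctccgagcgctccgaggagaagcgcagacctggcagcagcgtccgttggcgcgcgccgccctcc
Fcho1, chr8:71725682-71725931: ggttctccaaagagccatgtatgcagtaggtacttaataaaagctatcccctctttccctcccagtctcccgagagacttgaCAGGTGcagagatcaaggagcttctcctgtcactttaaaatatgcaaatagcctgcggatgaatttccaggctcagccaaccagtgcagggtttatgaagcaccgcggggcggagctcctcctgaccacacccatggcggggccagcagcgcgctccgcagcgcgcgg
Nxpe2, chr9:48340899-48341148: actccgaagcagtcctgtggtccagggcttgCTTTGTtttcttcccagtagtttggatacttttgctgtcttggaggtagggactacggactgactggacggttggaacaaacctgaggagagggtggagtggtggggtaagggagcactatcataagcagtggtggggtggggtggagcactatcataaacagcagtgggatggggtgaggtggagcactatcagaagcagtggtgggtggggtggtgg

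These 3 windows differed in base composition. Syt10 had 32 CG dinucleotides in 250 bases, a number reached by 4.58% of the 32851 RefSeq promoters of the same length, and Fcho1 had 12, reached by 33.5%. Nxpe2 had 3, below the median of 6 over all promoters. Both strands were searched for 5 motifs. The E-box CANNTG was found 1 time, before Fcho1, and in 66.2% of all promoters. The Sox core ACAAAG was found 1 time, before Nxpe2, and in 16.5% of all promoters. The Pu.1 motif GAGGAAGT, the AP-1 motif TGACTCA and the palindromic NFI motif were in none of the 3 windows, and in 2.44%, 4.46% and 0.0365% of all promoters. The matches do not overlap one another, and a match is a description of the letters only.

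RNA libraries held 30693629 to 66304405 counts from 2867 to 8079 nuclei, and ATAC libraries held 66535381 to 86927891 counts from 3694 to 6943 nuclei. The authors' 22 cell types were used under their own names, of which 20 had enough nuclei for RNA tests and 16 for ATAC tests. Glia means astrocytes (NN-Astro), oligodendrocytes (NN-ODC), OPC (NN-OPC) and microglia (NN-MGC), and Exc and Inh are the sums of the excitatory and inhibitory types. The glial names went with their markers. The 6 astrocyte markers summed to 7055 to 7772 CPM in NN-Astro (CPM is a gene's count per 1000000 counts of that library in that cell type), and the 6 oligodendrocyte markers summed to 13916 to 15196 CPM in NN-ODC. No marker of either list was at 0 in its own type. Neurons made up 97.0% to 98.2% of ATAC nuclei but 47.0% to 69.9% of RNA nuclei, and the ATAC libraries held 63 to 160 glial nuclei each.

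Across the tested types, the 5 genes had enough counts for 74 pairs of gene and cell type. In 10 pairs both DBA libraries were above both BL6 libraries and in 36 pairs both were below, against a background of 22.6% above and 25.2% below over all genes and types and of 47.7% for either. This contrast chose the genes, so nothing is read from those counts. The working description of the set was a glial difference missing from most neurons. Strains overlapped in 9 and 11 of 13 neuronal types for Fcho1 and Nxpe2. For Syt10 they overlapped in 5 of 10, near the background over all types, so that count tells nothing of Syt10. Strains stood apart in 9 of 10 neuronal types for Rbm20 and in all 14 for Arhgap26, so the working description does not hold for these genes. A background share for neuronal types alone is not given here.

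**Figure D1:**
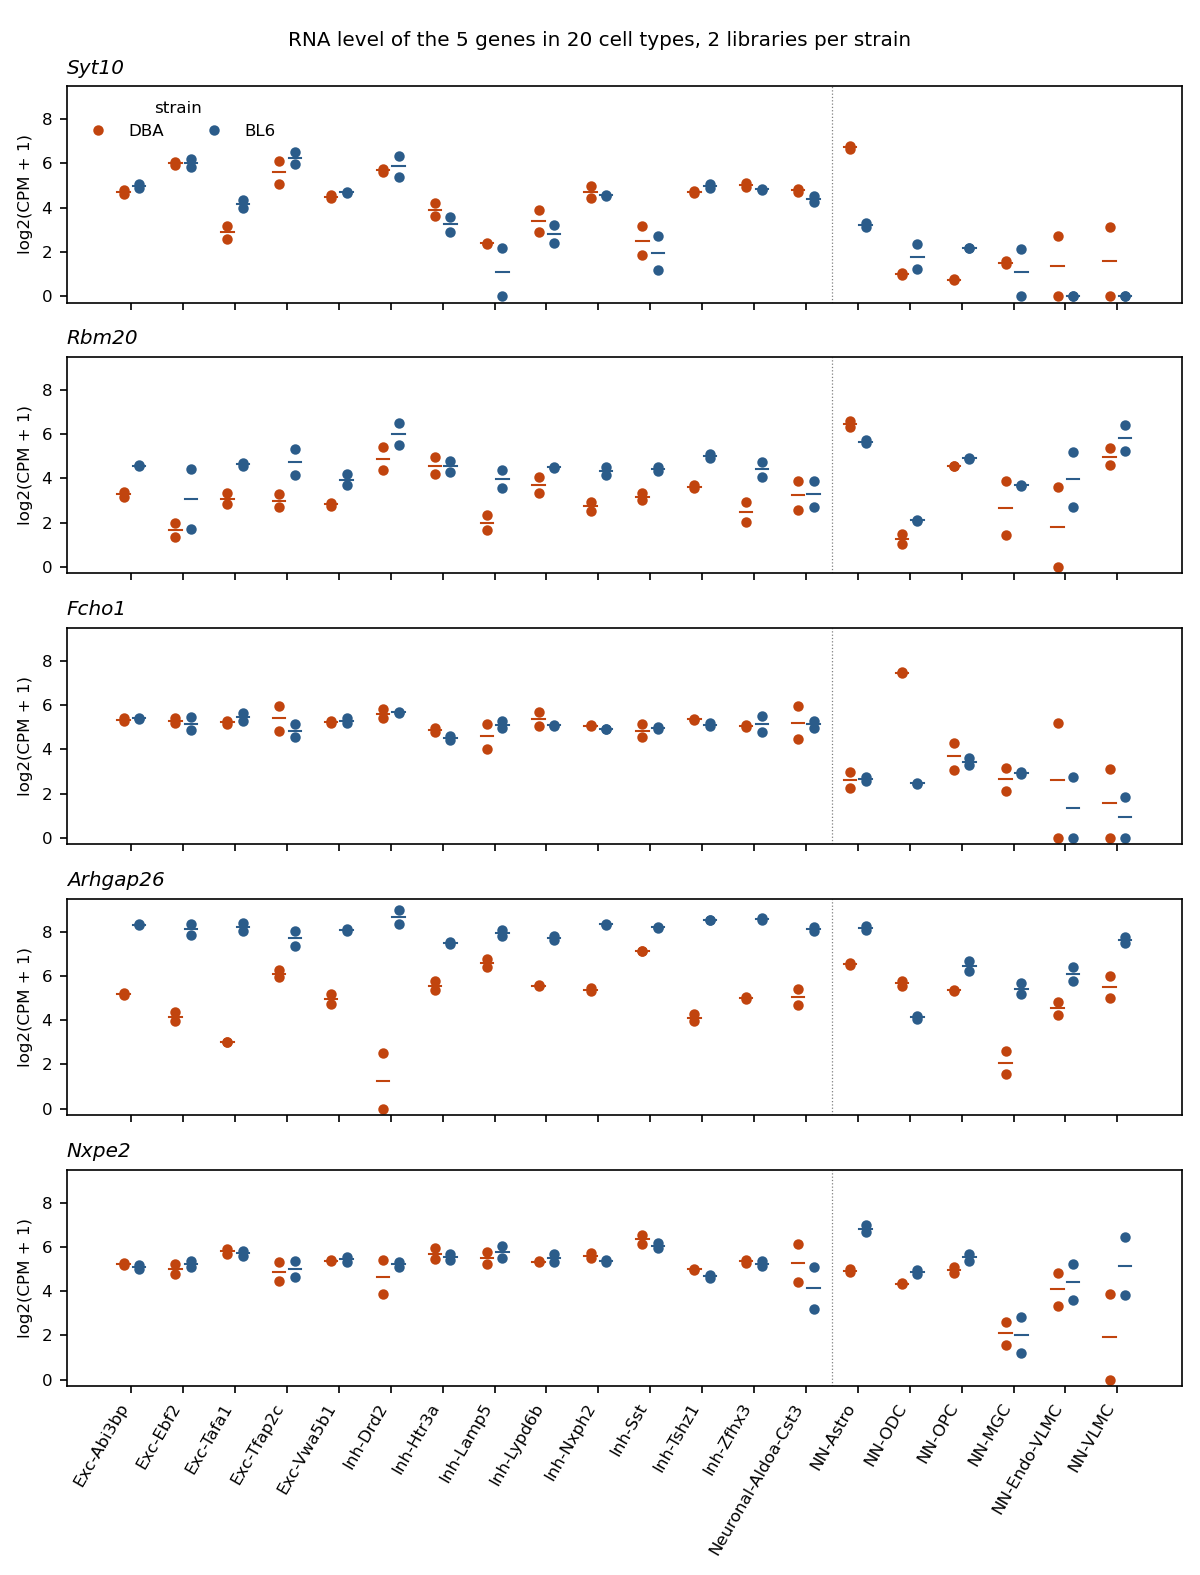
RNA level as log2(CPM + 1) in 20 cell types, neurons left of the dotted line and other cells right of it. Each point is 1 library and each short line the mean of 2, with DBA left of BL6. Syt10 and Fcho1 stand out in DBA in 1 glial type each, NN-Astro and NN-ODC, and Arhgap26 is lower in DBA in every type but NN-ODC.

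Syt10 RNA was far higher in DBA astrocytes than in BL6 astrocytes. NN-Astro held 100.5 and 109.9 CPM in DBA, from 377 and 435 counts, against 8.85 and 7.57 CPM in BL6, from 43 and 34 counts. Means were 105.2 ± 6.69 CPM in DBA and 8.21 ± 0.904 CPM in BL6 (SD, n = 2 each), and the edgeR log2 difference, DBA minus BL6, was 3.80 ± 0.17 (SE). The strains did not overlap, and the astrocyte gap was the largest for this gene among the 11 types with enough counts.

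In neurons the strains lay closer for Syt10: of 10 neuronal types fitted, DBA libraries were above BL6 libraries in 1, below them in 4 and overlapped them in 5. The sum of inhibitory types held 20.1 and 25.1 CPM in DBA against 24.4 and 20.8 CPM in BL6, and the sum of excitatory types held 19.9 and 21.3 CPM in DBA against 24.9 and 23.4 CPM in BL6. The widest neuronal gap was in Exc-Tafa1, at 8.09 and 5.03 CPM in DBA against 19.0 and 14.7 CPM in BL6, a log2 difference of -1.36 ± 0.28 (SE). Over the 10 neuronal types fitted, the log2 difference ran from -1.36 to 0.41, with a median of -0.21. In NN-OPC, NN-ODC and NN-MGC the gene was rare in both strains, with at most 11 counts in a library.

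The order of Syt10 levels differed between strains. In DBA, NN-Astro was the highest of 20 types at 105.2 CPM, ahead of Exc-Ebf2 at 63.0 ± 4.09 CPM and Inh-Drd2 at 50.9 ± 3.64 CPM (SD, n = 2), and the library ranges of these 3 types did not overlap. In BL6, Exc-Tfap2c at 75.9 ± 20.6 CPM, Exc-Ebf2 at 64.5 ± 11.6 CPM and Inh-Drd2 at 60.7 ± 27.8 CPM led and overlapped one another. Of the 19 neighbouring pairs in each order, 12 overlapped in DBA and 12 in BL6.

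Fcho1 gave the same kind of picture in oligodendrocytes. NN-ODC held 180.1 and 172.2 CPM in DBA, from 199 and 167 counts, against 4.45 and 4.54 CPM in BL6, from 12 and 7 counts. Means were 176.2 ± 5.56 CPM in DBA and 4.50 ± 0.0666 CPM in BL6 (SD, n = 2 each), with a log2 difference of 5.42 ± 0.25 (SE). Among the other 19 tested types, the highest single library was DBA_3 in Exc-Tfap2c at 61.9 CPM.

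Outside NN-ODC the strains were close for Fcho1. The excitatory sum held 37.0 and 38.4 CPM in DBA against 37.3 and 45.0 CPM in BL6, and the inhibitory sum 33.6 and 34.8 CPM in DBA against 29.9 and 35.2 CPM in BL6. NN-Astro held 3.73 and 6.82 CPM in DBA and 5.76 and 4.90 CPM in BL6, so this gene was low there in both strains. NN-OPC held 7.44 and 18.5 CPM in DBA and 8.88 and 11.1 CPM in BL6, again overlapping. Neuronal types ranged from a mean of 25.0 to 48.6 CPM in DBA and from 21.8 to 50.0 CPM in BL6, and strains overlapped in 9 of the 13 fitted.

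In the order of levels, NN-ODC was first for Fcho1 in DBA, apart from Inh-Drd2 at 48.6 ± 10.2 CPM, the next type. In BL6, Inh-Drd2 led at 50.0 ± 0.490 CPM, and NN-ODC was below every neuronal type. Of 19 neighbouring pairs, 17 overlapped in DBA and 13 in BL6.

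Rbm20 moved in opposite directions in astrocytes and neurons. NN-Astro held 95.1 and 79.1 CPM in DBA, from 357 and 313 counts, against 47.1 and 51.9 CPM in BL6, from 229 and 233 counts, a log2 difference of 0.95 ± 0.15 (SE). The excitatory sum held 7.45 and 6.80 CPM in DBA against 20.7 and 20.2 CPM in BL6, and the inhibitory sum 9.23 and 8.94 CPM in DBA against 23.8 and 28.7 CPM in BL6. DBA libraries were thus all above BL6 libraries in astrocytes and all below them in both neuronal classes, where the log2 differences were -1.51 ± 0.17 and -1.50 ± 0.15 (SE).

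The lower level in DBA was spread over neuronal types. Strains did not overlap in 9 of 10 fitted, with log2 differences from -2.06 in Inh-Zfhx3 to 0.03 in Inh-Htr3a, the type that overlapped at 17.5 and 30.2 CPM in DBA against 26.7 and 18.7 CPM in BL6. NN-OPC went the way of the neurons, with 22.3 and 22.3 CPM in DBA against 28.9 and 29.2 CPM in BL6. The glial sum, at 56.7 and 50.9 CPM in DBA against 28.9 and 34.9 CPM in BL6, was carried by astrocytes: with equal weight to each glial type, its difference turned to -0.36 on the log2 scale. NN-Astro was first in DBA at 87.1 ± 11.3 CPM, apart from NN-VLMC at 31.8 ± 12.2 CPM. In BL6, Inh-Drd2 at 66.7 ± 31.1 CPM, NN-VLMC at 61.0 ± 34.8 CPM and NN-Astro at 49.5 ± 3.36 CPM led and overlapped one another. Of 19 neighbouring pairs, 17 overlapped in DBA and 16 in BL6.

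Arhgap26 was much lower in DBA in nearly every cell type, and higher in 1. The excitatory sum held 20.4 and 27.5 CPM in DBA against 276.4 and 312.7 CPM in BL6, and the inhibitory sum 50.9 and 45.7 CPM in DBA against 336.0 and 328.0 CPM in BL6. The log2 differences were -3.58 ± 0.14 in Exc and -2.76 ± 0.10 in Inh (SE), and no DBA library came near a BL6 library.

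Neuronal types of DBA differed widely among themselves. Inh-Drd2 held 4.65 and 0 CPM in DBA, from 4 and 0 counts, against 500.5 and 328.4 CPM in BL6, a log2 difference of -6.66 ± 0.53 (SE). Exc-Tafa1 held 7.11 and 7.00 CPM in DBA against 261.7 and 340.8 CPM in BL6. Inh-Sst had the smallest neuronal gap, with 138.6 and 138.4 CPM in DBA against 291.9 and 300.1 CPM in BL6, a log2 difference of -1.07 ± 0.12 (SE). Means over the 14 neuronal types ran from 2.32 to 138.5 CPM in DBA but only from 179.5 to 414.5 CPM in BL6.

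Among glia, Arhgap26 split by type. NN-Astro held 94.3 and 88.9 CPM in DBA against 272.3 and 302.2 CPM in BL6, NN-OPC 40.6 and 39.6 CPM in DBA against 75.1 and 102.6 CPM in BL6, and NN-MGC 5.07 and 1.98 CPM in DBA against 35.1 and 50.7 CPM in BL6. NN-ODC went the other way, with 54.3 and 46.4 CPM in DBA, from 60 and 45 counts, against 17.4 and 15.6 CPM in BL6, from 47 and 24 counts, a log2 difference of 1.74 ± 0.27 (SE). Of 19 types fitted, NN-ODC was the only one in which DBA was higher, and all 18 others were lower without overlap. The strain difference was less negative in the glial sum than in neurons, by 2.01 ± 0.17 (SE) on the log2 scale. In DBA the highest levels were in Inh-Sst, Inh-Lamp5 at 96.3 ± 17.8 CPM and NN-Astro at 91.6 ± 3.80 CPM, and in BL6 in Inh-Drd2 at 414.5 ± 121.7 CPM and Inh-Zfhx3 at 383.0 ± 18.3 CPM, with NN-ODC last of 20 types. Of 19 neighbouring pairs, 12 overlapped in DBA and 15 in BL6.

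Nxpe2 was lower in DBA astrocytes and close between strains in neurons. NN-Astro held 30.6 and 27.8 CPM in DBA, from 115 and 110 counts, against 126.4 and 99.8 CPM in BL6, from 614 and 448 counts, a log2 difference of -1.82 ± 0.16 (SE). NN-OPC held 33.2 and 27.5 CPM in DBA against 51.1 and 39.7 CPM in BL6, and NN-ODC 19.0 and 19.6 CPM in DBA against 26.3 and 29.9 CPM in BL6. DBA libraries were below BL6 libraries in these 3 glial types.

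In neurons the strains overlapped in 11 of the 13 types fitted, and in the other 2, Inh-Nxph2 and Inh-Tshz1, DBA was slightly higher. The inhibitory sum held 48.5 and 44.0 CPM in DBA against 41.0 and 38.8 CPM in BL6 without overlap, and the excitatory sum 46.0 and 43.1 CPM in DBA against 47.4 and 42.1 CPM in BL6. In the order of levels, NN-Astro led in BL6 at 113.1 ± 18.8 CPM, apart from Inh-Sst at 65.4 ± 7.27 CPM. In DBA, Inh-Sst led at 81.4 ± 16.2 CPM and NN-Astro was number 15 of 20 at 29.2 CPM. Of 19 neighbouring pairs, 17 overlapped in DBA and 16 in BL6.

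**Figure D2:**
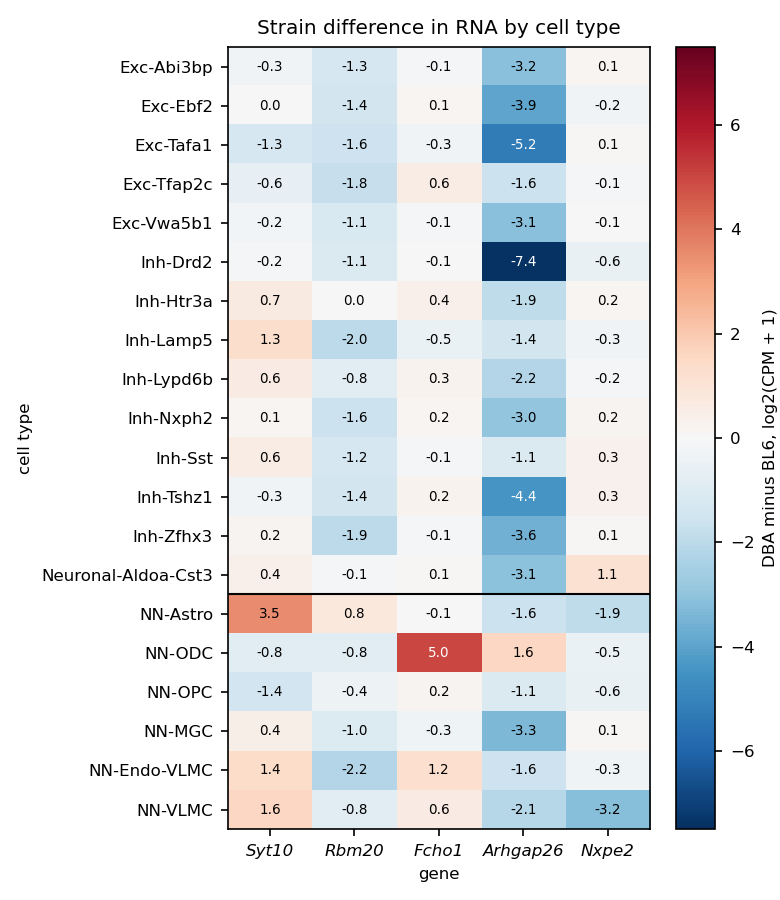
Difference in RNA level, DBA minus BL6, as log2(CPM + 1) means of 2 libraries each, for the 5 genes in 20 cell types; red is higher in DBA and the black line parts neurons above from other cells below. The 2 large positive cells are Syt10 in NN-Astro and Fcho1 in NN-ODC, and the Arhgap26 column is negative except for NN-ODC.

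Several marker lists of other cells stood apart between strains in these glial types, and their part in the RNA differences was not tested. In NN-Astro, all 6 oligodendrocyte markers had counts in both strains and summed to 65.3 and 71.5 CPM in DBA against 212.2 and 177.7 CPM in BL6, and the 8 microglial markers summed to 133.0 and 125.8 CPM in DBA against 265.3 and 238.5 CPM in BL6. In NN-ODC, the 8 microglial markers summed to 85.1 and 87.7 CPM in DBA against 208.3 and 206.4 CPM in BL6. The 6 endothelial and mural markers summed to 2.72 and 3.09 CPM in DBA against 9.27 and 27.3 CPM in BL6 in NN-ODC, with Cldn5 and Pdgfrb at 0 in DBA. The 4 neuronal markers overlapped between strains in NN-ODC, at 436.2 and 872.5 CPM in DBA against 1305 and 650.2 CPM in BL6, where neuronal types reached 13504 CPM on average in Inh-Lypd6b. Astrocytes gave 54.2% and 56.5% of the glial RNA counts in DBA against 44.3% and 52.7% in BL6. They held 632 and 1012 RNA nuclei in DBA against 1184 and 1072 in BL6. For a single gene, counts summed over nuclei cannot tell fewer nuclei with its RNA from less of its RNA per nucleus. The processing notes give mm10, the genome of a BL6 mouse, as the build. Whether RNA of both strains was counted with the same annotation is not stated. Of 34039 genes, 22155 had 10 or more counts in each strain. The part of sequence or annotation differences in the RNA gaps was not tested.

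Levels in glia and in neurons come from the same RNA values that chose the genes, so they too are described with no test. Rbm20 was higher in the glial sum, at a mean of 42.8 CPM in Glia, 13.8 CPM in Exc and 17.7 CPM in Inh over the 4 libraries. Fcho1 was lower in that sum, at 19.4 CPM in Glia, 39.4 CPM in Exc and 33.3 CPM in Inh. The edgeR log2 differences of glia minus neurons, averaged over strains, were 1.51 ± 0.07 and -1.43 ± 0.07 (SE). For Syt10 and Nxpe2 the scale set the sign of the average. Syt10 averaged 32.1 CPM in Glia, 22.4 CPM in Exc and 22.6 CPM in Inh, yet its average on the log2 scale was -0.41 ± 0.08. Nxpe2 averaged 47.9 CPM in Glia, 44.6 CPM in Exc and 43.1 CPM in Inh, with -0.13 ± 0.05 on the log2 scale. Arhgap26 averaged 116.5 CPM in Glia, 159.3 CPM in Exc and 190.1 CPM in Inh, with -0.06 ± 0.08.

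The sign of the difference between glia and neurons depended on strain for 3 of the 5 genes. Syt10 in the glial sum differed from neurons by 1.41 and 1.40 in DBA, against -1.87 and -1.96 in BL6, all as differences of log2(CPM + 1). Astrocytes carried this for Syt10, since NN-MGC, NN-ODC and NN-OPC of DBA averaged 1.83, 0.968 and 0.658 CPM, below every neuronal type. With equal weight to each glial type, the strain difference of Syt10 in glia was 0.43 on this scale, beside 3.21 in the glial sum, and that of Fcho1 was 1.22, beside 2.22. Arhgap26 stood at 1.07 and 0.87 in DBA against -1.08 and -0.77 in BL6, while Nxpe2 stood at -0.78 and -0.79 in DBA against 0.73 and 0.70 in BL6. Fcho1 was nearly level in DBA, at -0.11 and -0.17, against -2.26 and -2.50 in BL6. Rbm20 in the glial sum was higher than in neurons in both strains, by 2.63 and 2.56 in DBA and by 0.37 and 0.52 in BL6. Not every glial type was high: NN-ODC averaged 1.42 CPM in DBA and 3.29 CPM in BL6, last of 20 types in both strains. NN-MGC averaged 7.76 CPM in DBA and 11.9 CPM in BL6.

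**Figure D3:**
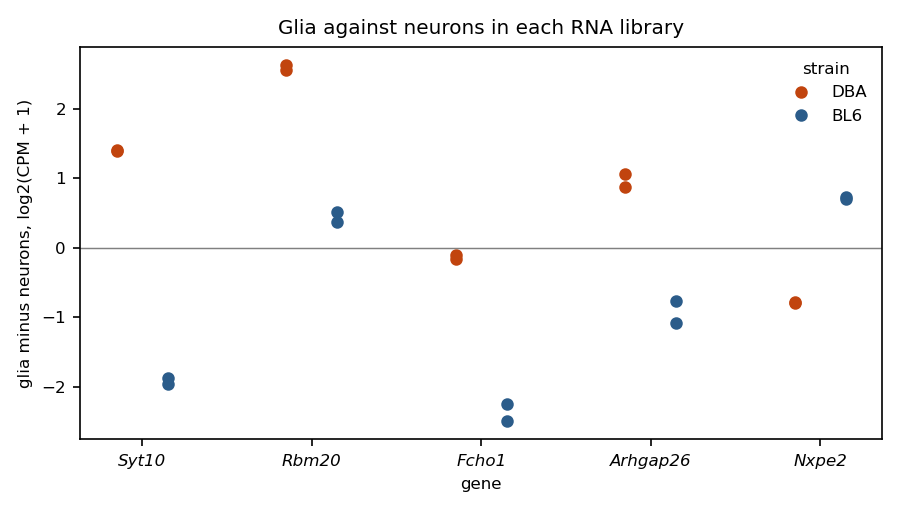
Glia minus the mean of excitatory and inhibitory sums, as log2(CPM + 1), for each gene and RNA library, DBA left of BL6. Syt10 and Arhgap26 lie above 0 in DBA and below 0 in BL6, Nxpe2 the reverse, and Rbm20 lies above 0 in all 4 libraries.

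Open chromatin was compared between strains at the 192 peaks, and the choice of genes did not use it. In Exc, 11 of 191 peaks tested differed between strains (8 higher and 3 lower in DBA, edgeR adjusted p under 0.05), against 4.93% of all peaks (2.53% higher and 2.4% lower). In Inh, 6 of 192 differed (2 higher and 4 lower), against 3.47% (1.88% higher and 1.58% lower). In Glia, 28 of the peaks had enough counts and none was called, with 0 at an unadjusted p under 0.05, against 0.185% of all peaks. DESeq2 called 0 there too. The strain difference was not found to depend on class in edgeR at any of the 192 peaks (0 called), of which 13 had an unadjusted p under 0.05, while 1 peak in the whole table (0.000369%) was called. DESeq2 called 0 of the 192. The edgeR fit for this dependence kept all 192 peaks, but only 28 of them had enough counts in Glia alone. At the peaks with too few glial counts, the absence of calls cannot decide whether the strain difference depends on class. Astrocytes gave 13.5% and 40.8% of the glial ATAC counts in DBA against 45.1% and 29.2% in BL6, and the part of this makeup in the glial values was not tested.

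The peaks at the starts of Syt10 and Fcho1 shown above were not called between strains. The peak that covers 248 of the 250 Syt10 bases shown above, chr15:89840462-89842108, held 13.0 and 16.2 CPM in glia of DBA against 8.41 and 15.5 CPM in glia of BL6, from 10 to 27 counts per library. Its log2 difference was 0.28 ± 0.42 (SE, edgeR adjusted p = 1.0) in glia, 0.04 in Exc and 0.05 in Inh. No peak of Syt10 was called between strains in any class. The peak at that Fcho1 start, chr8:71725067-71725852, overlaps 171 of the bases shown and held 23.9 and 15.6 CPM in glia of DBA against 14.3 and 14.4 CPM in glia of BL6, a log2 difference of 0.49 ± 0.38 (SE, adjusted p = 1.0). All 5 Fcho1 peaks with enough glial counts had a positive log2 difference, from 0.25 to 0.49, and none was called. The peak at the upper end of the Fcho1 span, chr8:71728299-71729505, differed by -0.09 in Exc and -0.09 in Inh and was not called. In single types 1 peak of Fcho1 was called, chr8:71718285-71718549 in Exc-Vwa5b1, where 3.14% of all peaks were called. It held 9.18 and 10.1 CPM in DBA against 6.83 and 5.42 CPM in BL6, a log2 difference of 0.70 ± 0.19 (SE, edgeR adjusted p = 0.015). Its call was lost in DESeq2 and without DBA_3 or BL6_3 (adjusted p of 0.10 to 0.78).

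Oligodendrocytes and astrocytes alone were too few for a firm ATAC value. NN-ODC had 11 and 19 nuclei in DBA and 9 and 36 in BL6, and the 6 peaks inside Fcho1 summed there to 81.8 and 123.7 CPM in DBA, from 20 and 21 counts, against 8.59 and 46.3 CPM in BL6, from 1 and 16 counts. The DBA libraries were above the BL6 libraries in NN-ODC, with no test possible for single peaks, none of which had enough counts. NN-Astro had 7 and 55 nuclei in DBA and 35 and 49 in BL6, and the 7 peaks inside Syt10 summed there to 21.5 and 38.2 CPM in DBA, from 4 and 24 counts, against 24.3 and 19.7 CPM in BL6, from 13 and 10 counts, which overlap.

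The largest accessibility difference lay next to Nxpe2 and was called in both neuronal classes. The peak chr9:48313815-48314589, inside the span of Nxpe4 and 3.41 kb past the end of Nxpe2, held 0.190 and 0.219 CPM in Exc of DBA against 4.23 and 3.50 CPM in Exc of BL6. Inh held 0.190 and 0.423 CPM in DBA against 5.16 and 5.21 CPM in BL6. The log2 differences were -4.18 ± 0.29 in Exc (SE, edgeR adjusted p = 6.55e-21) and -4.09 ± 0.27 in Inh (adjusted p = 4.45e-21), and the peak was called in 6 of the 7 single types tested. These were Exc-Abi3bp, Exc-Tafa1, Exc-Vwa5b1, Inh-Nxph2, Inh-Tshz1 and Inh-Zfhx3, in which 1.51%, 3.28%, 3.14%, 1.52%, 2.91% and 2.22% of all peaks were called. Glia held 0 and 0.649 CPM in DBA, from 0 and 1 counts, against 5.89 and 5.18 CPM in BL6, from 7 and 9 counts, too few for the test.

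The RNA of Nxpe2 did not go the way of this peak in neurons. In Exc the peak differed by -4.18 on the log2 scale and the RNA by 0.01 ± 0.12 (SE), and in Inh the RNA differed by 0.23 ± 0.11. The other 2 peaks near Nxpe2 were not called in Exc or Inh. In the single type Inh-Tshz1, the peak inside the gene, chr9:48339633-48339915, which lies 984 bases from the sequence shown above, was called higher in DBA. It held 2.85 and 3.18 CPM in DBA, from 33 and 21 counts, against 0.934 and 0.437 CPM in BL6, from 7 and 5 counts, a log2 difference of 2.21 ± 0.45 (SE, edgeR adjusted p = 0.00034). The call was lost in DESeq2 (adjusted p = 0.15) and without BL6_3 (adjusted p = 0.13). Nxpe2 RNA in Inh-Tshz1 held 31.1 and 30.2 CPM in DBA against 25.96 and 23.5 CPM in BL6. Whether reads of DBA map less well to the reference there was not tested.

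**Figure D4:**
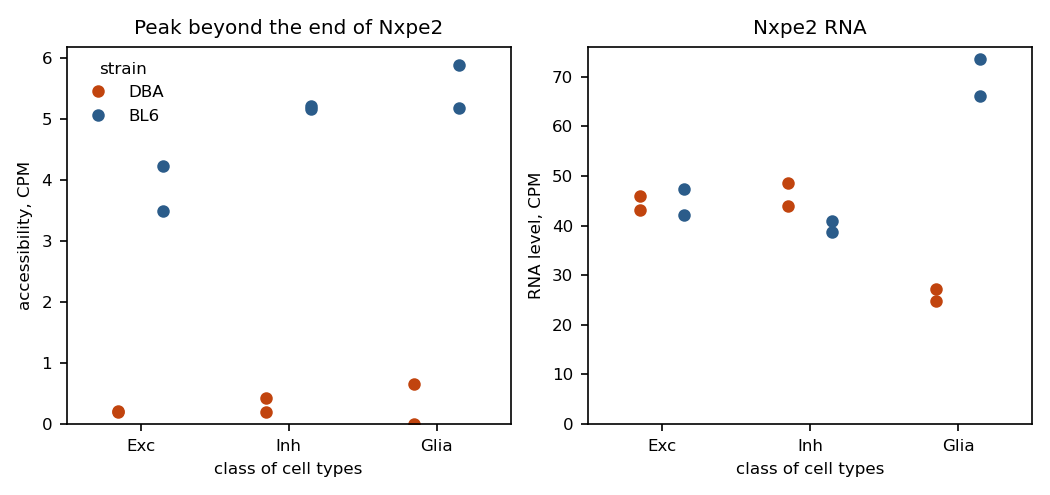
Accessibility of the peak past the end of Nxpe2 (left) and Nxpe2 RNA level (right), both in CPM, in sums of excitatory, inhibitory and glial types; each point is 1 library, DBA left of BL6. The peak is near 0 in DBA in all 3 classes, while the RNA is lower in DBA in glia and not in neurons.

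At Rbm20 a single peak was lower in DBA in both neuronal classes. It lies at chr19:53824597-53825522, inside the gene and at the end of the long non-coding gene Gm16299. Exc held 3.09 and 2.49 CPM in DBA against 6.13 and 5.09 CPM in BL6, a log2 difference of -0.95 ± 0.16 (SE, edgeR adjusted p = 5.31e-06), and Inh held 2.31 and 1.83 CPM in DBA against 6.37 and 4.93 CPM in BL6, a difference of -1.38 ± 0.18 (adjusted p = 1.28e-08). It was also called in 5 of 9 single types, where 0.783% to 3.14% of all peaks were called. Glia held 2, 2, 12 and 8 counts in DBA_2, DBA_3, BL6_2 and BL6_3, too few for the test, and both DBA counts were below both BL6 counts there. A second peak, chr19:53862203-53863250, was higher in DBA in Exc by 0.43 ± 0.12 (adjusted p = 0.011), a call lost in DESeq2 and without DBA_3, BL6_2 or BL6_3 (adjusted p of 0.12 to 0.57).

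Arhgap26, at chr18:38601617-39376285, held 129 of the 192 peaks over a span of 774.7 kb. In Exc, 7 of them were higher and 1 lower in DBA, beside 2.53% higher and 2.4% lower over all peaks, and in Inh 2 were higher and 2 lower, beside 1.88% and 1.58%. The peak with the smallest adjusted p was chr18:38917829-38919433, within the overlapping genes Fgf1 and Gm5820. It held 14.3 and 13.95 CPM in Exc of DBA against 8.32 and 8.14 CPM in Exc of BL6, a log2 difference of 0.83 ± 0.12 (SE, edgeR adjusted p = 5.75e-08). In Inh it differed by 0.82 ± 0.13 (adjusted p = 1.34e-06), and in glia by -0.04 ± 0.37 (adjusted p = 1.0). A larger difference was at chr18:39328957-39329265, higher in DBA by 1.77 in Inh (edgeR adjusted p = 9.0e-05) and 1.28 in Exc (adjusted p = 0.0075). Its Inh call was kept in every alternative and its Exc call was not. The peak chr18:38788337-38789501 was lower in DBA in both classes, by -0.64 ± 0.17 in Exc (adjusted p = 0.012) and -0.50 ± 0.11 in Inh (adjusted p = 0.0022). These calls were lost in DESeq2 and without BL6_2 or BL6_3, and in Exc also without DBA_3 (adjusted p of 0.057 to 0.31).

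Summed over the 128 peaks inside the gene, Arhgap26 accessibility did not show the RNA gap. Exc held 519.3 and 539.1 CPM in DBA against 522.2 and 519.4 CPM in BL6, and Inh 560.6 and 564.7 CPM in DBA against 547.4 and 556.9 CPM in BL6. The peak at the lower end of the gene, chr18:38600090-38602473, which also reaches Spry4, was more open in glia than in neurons by 0.78 ± 0.11 (adjusted p = 4.52e-10) and was not called between strains.

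**Figure D5:**
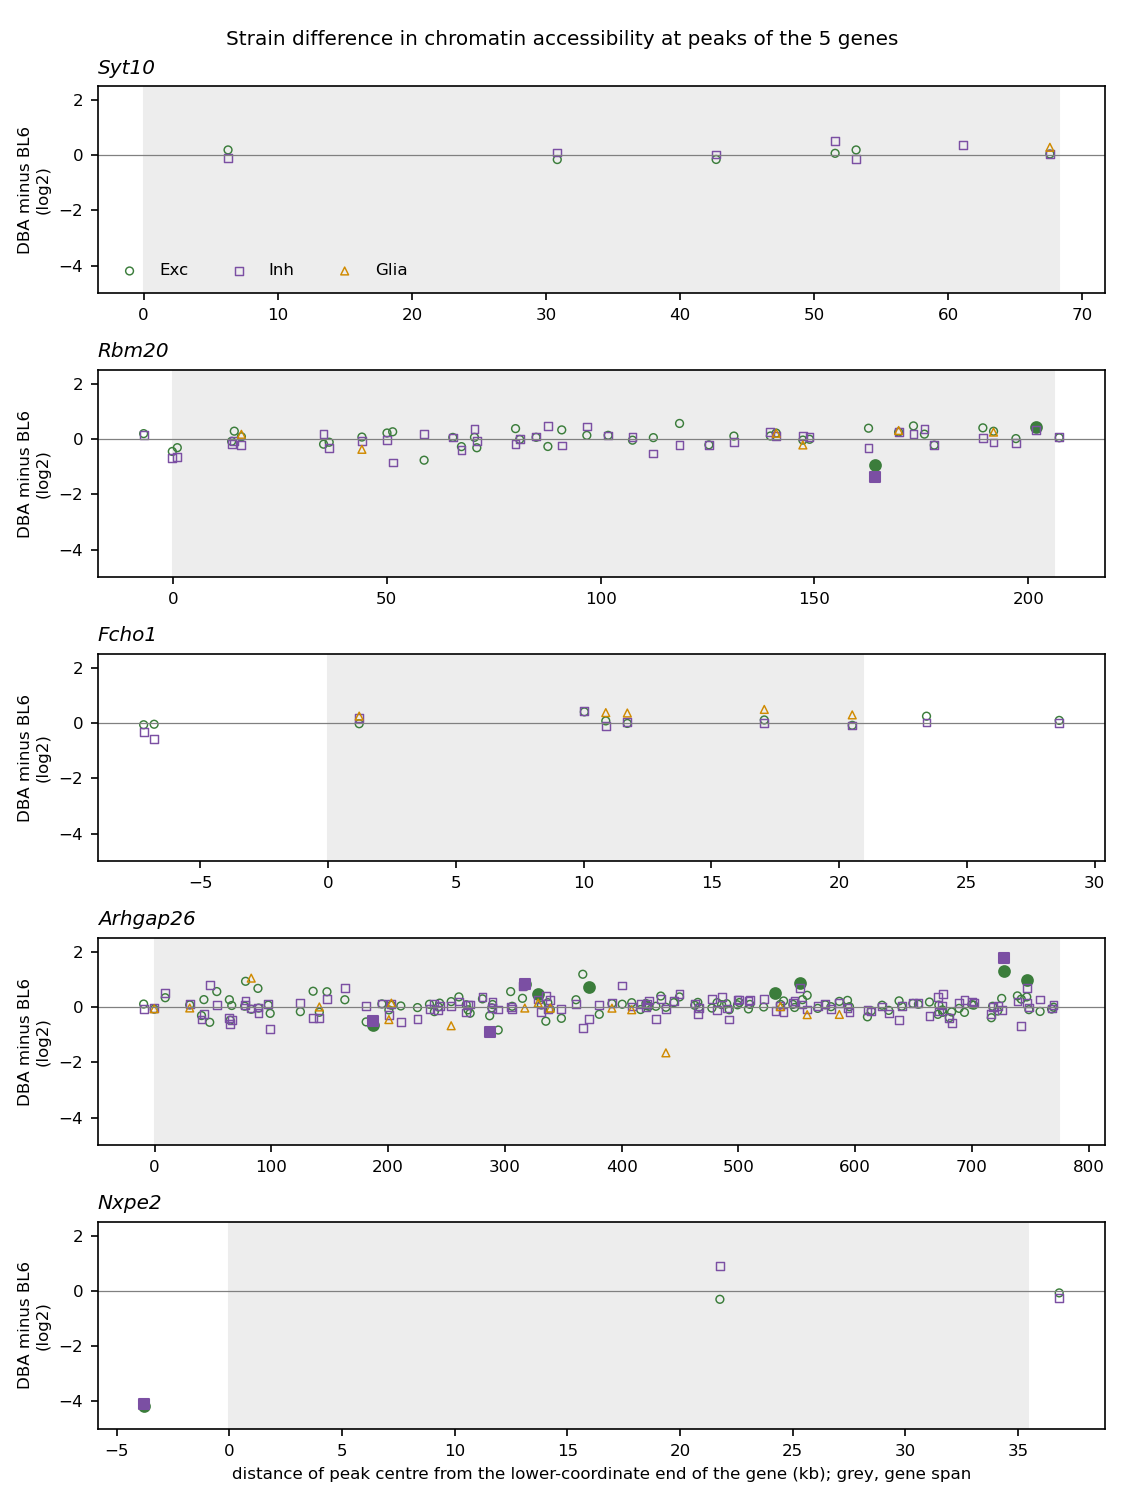
Strain difference in accessibility, DBA minus BL6 on the log2 scale, at each peak of the 5 genes, against the distance of the peak's centre from the lower-coordinate end of the gene in kb. Circles are Exc, squares Inh and triangles Glia, filled where adjusted p was under 0.05; the deepest values, near -4, are the peak past the end of Nxpe2, and no triangle is filled.

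Glia and neurons differed at many peaks of these genes when averaged over strains. Of 192 peaks, 61 were called between the classes, 22 higher and 39 lower in glia, against 21.8% of all 271234 peaks tested, 7.64% higher and 14.2% lower. Arhgap26 had 45 of them among its 129 peaks, Rbm20 10 of 43, Fcho1 5 of 10, Syt10 1 of 7 and Nxpe2 0 of 3. The median difference over all peaks was -0.76 on the log2 scale, so a lower value in glia was not particular to these genes. The largest gain was at chr18:38742490-38742862 in Arhgap26, with 4.55 to 14.5 CPM in glia against 0.274 to 0.394 CPM in Exc, a log2 difference of 4.67 ± 0.36 (SE, adjusted p = 3.72e-36). Rbm20 RNA was higher in the glial sum, and its peak chr19:53676306-53677644 was more open there by 1.32 ± 0.17 (adjusted p = 1.18e-12), while 7 of its 10 called peaks were less open.

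Of 18 RefSeq genes that overlap these genes or lie within 10 kb, 9 were in the RNA table. Gm5820, which overlaps Arhgap26, was lower in DBA everywhere it was measured, with 0.581 and 0.559 CPM in Exc of DBA against 13.96 and 10.2 CPM in Exc of BL6, and 3.20 and 3.79 CPM in NN-Astro of DBA against 70.4 and 90.2 CPM in NN-Astro of BL6. Fgf1, which encodes a fibroblast growth factor and also overlaps Arhgap26, was lower in Inh by -0.70 ± 0.08 on the log2 scale (SE). It was also lower in Exc by -0.59 ± 0.17 (edgeR adjusted p = 0.023) and in NN-Astro by -0.54 ± 0.13 (adjusted p = 0.0041). It was higher in NN-ODC by 0.77 ± 0.22 (adjusted p = 0.016). In NN-ODC, Fgf1 held 68.8 and 80.4 CPM in DBA against 38.9 and 59.7 CPM in BL6. Fgf1 thus had the same signs as Arhgap26 in Exc, Inh, NN-Astro and NN-ODC, and without strand in the notes, reads of overlapping genes cannot be told apart. Gm16299, inside Rbm20, was lower in Exc by -1.47 ± 0.29 and in Inh by -1.97 ± 0.28 and was not called in NN-Astro. Nxpe4, which overlaps Nxpe2, was higher in Inh by 0.36 ± 0.10 (adjusted p = 0.018) and not called in NN-Astro, at -0.37 ± 0.13 (adjusted p = 0.065).

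Other genes of the same pathways were counted in 5 lists. Of 89 listed relatives, 6 of 86 tested were called in Exc, 6 of 85 in Inh and 8 of 82 in Glia, against 24.3%, 23.9% and 20.9% of all genes. Those shares include genes counted in only 1 strain. With genes counted in both strains, 1754, 1583 and 1595 genes were called in Exc, Inh and Glia, against 5065, 5092 and 3869. A share on that basis is not given here, so nothing is read from the lower share of relatives. The glial count rested on single libraries, at 4 without DBA_2 and 19 without BL6_3. Among 16 other synaptotagmins, 1 of 14 in glia was higher, Syt14, at 53.1 ± 4.08 CPM in DBA and 30.9 ± 3.04 CPM in BL6 (SD, n = 2 each), and 1 was lower, Syt4. Of 22 splicing regulators, the neuronal RNA-binding protein Elavl3 was lower in DBA in Exc, Inh and Glia, at 106.5 CPM in Exc of DBA and 205.6 CPM in Exc of BL6, and Srrm4 was lower in Glia. Of 21 genes of early clathrin endocytosis, the adaptor gene Dab2 was higher in Glia, by 0.63 ± 0.14 (edgeR adjusted p = 0.00345), and 0 were called in Exc. Of 22 GTPase-activating proteins of the family of Arhgap26, Gmip was higher in Exc and Inh, by 0.95 ± 0.16 and 1.09 ± 0.14, while in Glia Arhgap42 and Arhgap32 were higher and Sh3bp1 lower. Of 8 neurexophilin family genes, 5 were tested in Inh, where Nxpe4 was higher and Nxph2 lower, and 0 of 3 were called in Glia. List medians in glia ran from -0.32 to 0.11 on the log2 scale, beside 0.03 for all genes.

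Likeness of pattern was measured over the 80 columns of type and library. The genes most like Syt10 were Mir124-2hg, Kcnn3 and Galnt18, with Pearson's r of 0.78, 0.77 and 0.72 over log2(CPM + 1), as a description only since columns share libraries. Kcnn3 stood at 136.0 CPM in NN-Astro of DBA and 143.3 CPM in NN-Astro of BL6. For Fcho1 the first 2 were Pcnx2 and Dgki (r of 0.80 and 0.78), and for Rbm20 they were Mapk4, Mro and Serpine2 (0.73, 0.59 and 0.59). For Nxpe2 they were Bicd1, its neighbour Nxpe4 and Syne1 (0.74, 0.73 and 0.72). For Arhgap26 they were Hira, Vinac1 and Pabpn1 (0.76, 0.76 and 0.73), all lower in NN-Astro of DBA, with Hira at 7.25 CPM in DBA and 68.4 CPM in BL6. Hira, Vinac1 and Pabpn1 were also lower in NN-ODC of DBA, where Arhgap26 was higher. In NN-ODC Hira stood at 6.39 CPM in DBA and 61.7 CPM in BL6. Among the 5 genes themselves, r ran from -0.33 for Fcho1 and Rbm20 to 0.46 for Fcho1 and Syt10.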

How the data were processed

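The series has 24 samples. The 8 RNA and ATAC libraries were used, and methylation data (16 samples) were not analysed here. The deposited tables hold raw counts per gene and per ATAC peak, which the authors added up over nuclei by cell type and library. Per the submitters' processing notes, RNA reads went through Cell Ranger (6.0.2) and Seurat (4.0.5), ATAC reads through Cell Ranger ATAC (2.0.0), and the build was mm10. The peak caller, strand setting, nucleus filters and doublet handling are not given in the sources used here. The tables hold no barcodes, so doublets and shared barcodes could not be examined. Libraries are numbered 2 and 3 in the tables but 1 and 2 in the titles, so columns were tied to strains only.

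Members, lists and alternatives were chosen with earlier results of these data known. A cell type was tested with at least 10 nuclei and 50000 RNA or 100000 ATAC counts in all 4 columns. Log2 differences with SE came from edgeR 4.0.16 (robust quasi-likelihood, TMM, filterByExpr with a minimum count of 10), fitted on all features, with Benjamini-Hochberg adjustment and a threshold of 0.05. The SE was worked back from the fit, as the absolute log2 difference divided by the square root of its F statistic. For RNA of the members it is a description of spread only. Class and interaction terms used the Exc, Inh and Glia sums with the library as a block; in RNA they are described without the planned class test, since the same values chose the genes. DESeq2 1.42.0, other scalings and filters, and leaving out each library were alternatives. The scripts were tested on simulated data. Genes named beside the members were those within 10 kb, the 3 with the highest Pearson's r, and listed relatives that were called or among the most expressed. One gene that this rule names is not reported here. Peaks named for a class difference were chosen after their values were seen. Coordinates of genes and promoters came from RefSeq (GRCm38.p6). Low values are limited by counting error.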

Additional observations from a re-analysis of the deposited data

Results flagged for a closer look

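Arhgap26 differed by 1.74 on the log2 scale (DBA minus BL6) in NN-ODC, with both DBA libraries above both BL6 libraries, while in Exc and Inh both DBA libraries were below. The difference between the types was not tested, since it is what chose the gene. Rbm20 differed by 0.95 in NN-Astro in the same sense, against lower DBA libraries in Exc and Inh, and this too was not tested.

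Types left out of the tests for too few nuclei also held counts. Rbm20 averaged 172.2 CPM in NN-Endo-SMC-Peri of DBA and 35.1 CPM in that of BL6, but from 7 and 4 counts in DBA and 5 and 8 in BL6, over 14 and 9 nuclei in DBA and 84 and 61 in BL6. Nxpe2 was there at 0 and 36.2 CPM in DBA against 352.4 and 348.4 CPM in BL6, from 0 and 1 counts in DBA and 86 and 56 in BL6. Fcho1 averaged 77.4 CPM in Exc-Strip2 of DBA and 16.1 CPM in that of BL6, from 2 and 30 counts in DBA and 32 and 0 in BL6, where DBA_2 had 1 nucleus and BL6_3 had 3.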

How the results depend on the processing

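The strain differences that were named as large kept their sign in every alternative tried, except for the glial sum of Rbm20, at -0.36 with equal weight to each cell type. Values near 0 changed sign. With total counts alone these were Syt10 in Inh (-0.0048), Fcho1 in NN-Astro (-0.0082), Nxpe2 in Exc (-0.013) and the class difference of Arhgap26 (0.022). Leaving out 1 library at a time gave -0.15 to 0.15 for Syt10 in Inh, -0.23 to 0.037 for Fcho1 in Exc, -0.021 to 0.21 for Fcho1 in Inh, -0.35 to 0.46 for Fcho1 in NN-Astro, -0.17 to 0.015 for the class difference of Arhgap26 and -0.074 to 0.10 for Nxpe2 in Exc. In Glia, the peak chr18:38917829-38919433 ran from -0.21 to 0.060 and was 0.016 with all non-neuronal types summed, and chr18:38929458-38930735 ran from -0.40 to 0.49. Called peaks in Exc numbered 3 in DESeq2, 5 at an adjusted p under 0.01 and 4 to 16 with a library left out (5 without BL6_2, 4 without BL6_3), against 11. In Inh they numbered 4 to 12 (12 without DBA_3), against 6. Called relatives numbered 3 to 7 in Exc with a library left out (3 without BL6_3), 10 in Inh with no filter on low counts, and in Glia 13 with total counts alone, 5 with all non-neuronal types summed, 4 with genes counted in both strains and 4 to 19 with a library left out (4 without DBA_2, 19 without BL6_3). Of 19 calls of a peak, 2 of them in single types with alternatives chosen after seeing the data, 7 were kept in every alternative: chr9:48313815-48314589, chr19:53824597-53825522 and chr18:38917829-38919433 in Exc and Inh, and chr18:39328957-39329265 in Inh. The causes were not tested. Over the whole table, DESeq2 called 5230 peaks in Exc and 2781 in Inh, against 13291 and 9041. Leaving out BL6_2 or BL6_3 gave 6969 and 7106 in Exc, 5187 and 4093 in Inh, and 37647 and 35426 in the class contrast, which had 34509 without DBA_3, against 59199. In Glia, 137 peaks were called with no filter, 126 with the crossed pairing, 109 without DBA_2 and 443 without DBA_3, against 54. The interaction had 40 calls without DBA_3, 4 without DBA_2 and 0 without either BL6 library, against 1. With genes counted in both strains, 1754, 1583 and 1595 genes were called in Exc, Inh and Glia, against 5065, 5092 and 3869. With total counts alone the median of all genes moved by -0.131 in NN-Astro, -0.145 in NN-ODC and -0.111 in Glia (log2). Same-numbered libraries did not deviate together (correlation -0.119 to 0.009). With 2 libraries per strain, this cannot show whether libraries of the same number were handled together. With a replicate block, 13 peaks were called in Exc, 6 in Inh and 0 in Glia, and 5, 7 and 8 relatives. With the crossed pairing, chosen after seeing the data, 13, 6 and 0 peaks were called. The 28 glial peaks with enough counts limit what glial ATAC can show.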
